A study of Caenorhabditis elegans with 2 samples.

Results

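Binding of UNC-62 was examined around 9 genes for molecular chaperones and protein quality control in Caenorhabditis elegans, out of 19973 protein-coding genes on the assembled chromosomes. The genes are hsp-1, hsp-3, hsp-4, hsp-6, hsp-60, hsp-110, hsf-1, cdc-48.1 and cdc-48.2. They were selected on earlier results from the same peak lists, in which some had strong peaks, so every signal and rank below is a description and none was tested. A peak was assigned to a gene when its summit, taken as the deposited start plus offset, lay in the gene or within 5000 bp of its ends. By that rule the 9 genes held 65 of the 28005 pooled candidate peaks.

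The data are chromatin immunoprecipitation followed by sequencing (ChIP-seq) of whole second-stage (L2) larvae of strain OP600, sexes pooled, age not stated. The genotype is unc119(ed3) with the integrated transgene wgIs600, a construct that adds TY1, EGFP and FLAG tags to unc-62 and also carries unc119. All samples share this genotype: the 2 biological replicates, each its own biosample, form 1 group, and no second condition or untagged group is used here. The tagged protein comes from an added transgene, and whole animals mix all tissues, so strong binding in few cells and weak binding in many cannot be told apart.

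The deposited signal of a peak was computed by the authors against a control and has its own scale in each list, so values are compared within a list only. The pooled list ran from 6.74 to 174 with a median of 9.02. Its highest peaks, down to a signal of 28.2, are the set the authors found reproducible by the irreproducible discovery rate procedure, called reproducible peaks here. As many of the highest peaks of a replicate list are called its top peaks. Each replicate had 30000 candidates, with signals of 4.31 to 115 in replicate 1 and 2.85 to 57.8 in replicate 2. The read depth is unknown.

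Chaperones help other proteins fold and keep unfolded proteins from aggregating. HSP70 proteins do so in cycles driven by ATP, in the cytosol, the endoplasmic reticulum and mitochondria, and chaperonins enclose a protein in a chamber while it folds. The heat shock factor HSF-1 turns on chaperone genes by binding heat shock elements, repeats of the unit GAA in alternating orientation. CDC-48, the worm form of the ATPase p97, pulls ubiquitin-marked proteins out of complexes and membranes on their way to the proteasome. UNC-62 is a homeodomain transcription factor of the MEIS and Homothorax type, known for its roles in development and, with its partners, for patterning of cells along the body.

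Of the 9 genes, 5 had a reproducible peak (cdc-48.1, hsp-110, hsp-60, hsp-3 and hsp-1), and in all 5 such a peak lay in the gene's own promoter, between 55 and 612 bp upstream of a 5' end. The other 4 (hsp-6, hsp-4, cdc-48.2 and hsf-1) had none. Across all protein-coding genes, 4.94% had a reproducible summit in the gene or within 5000 bp and 1.38% had one in their own promoter, defined as 1000 bp upstream to 200 bp downstream of a 5' end. Because the genes were chosen with these peaks known, nothing is read from the excess. The upstream sequences under these summits are shown first, with those of hsp-6 and of the weakly marked paralogs hsp-4 and cdc-48.2, for comparison between the genes with and without a strong peak.

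The sequences are from the RefSeq genome of build WBcel235, the assembly of ce11, written 5' to 3' on the strand of the named gene. Each but that of cdc-48.2 covers 100 bp on either side of the pooled summit, shortened where it would enter an annotated protein-coding gene. cdc-48.2 has no such summit, and its window was set by the distances of cdc-48.1. Capitals mark 3 kinds of motif found on either strand: GAGAGA, GAANNTTC and TTCNNGAA, each a pair of heat shock element units facing opposite ways, and TGACGTG, the core of the element that the endoplasmic reticulum stress factor XBP-1 is known to bind in mammals. The cdc-48.1 window is chrII:10563468-10563668, minus strand, from 261 to 61 bp upstream of the 5' end, and that of its paralog cdc-48.2 is chrII:8138235-8138435, plus strand, at the same distances. The hsp-110 window is chrIII:8447035-8447235, minus strand, the hsp-60 window chrIII:1619030-1619230, plus strand, and the hsp-1 window chrIV:17278508-17278708, plus strand. The hsp-6 window is chrV:4826987-4827187, minus strand. The windows of the paralogs hsp-3 and hsp-4 end at the base before their outermost 5' ends, at chrX:6092125-6092279 and chrII:7352646-7352812, both minus strand.
cdc-48.1: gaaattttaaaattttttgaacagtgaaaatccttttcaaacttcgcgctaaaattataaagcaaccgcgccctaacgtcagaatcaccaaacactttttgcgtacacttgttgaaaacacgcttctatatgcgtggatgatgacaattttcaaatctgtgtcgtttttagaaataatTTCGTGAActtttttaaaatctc
cdc-48.2: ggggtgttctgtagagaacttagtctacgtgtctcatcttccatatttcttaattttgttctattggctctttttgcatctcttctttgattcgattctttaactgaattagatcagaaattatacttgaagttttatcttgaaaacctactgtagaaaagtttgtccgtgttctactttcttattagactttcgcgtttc
hsp-110: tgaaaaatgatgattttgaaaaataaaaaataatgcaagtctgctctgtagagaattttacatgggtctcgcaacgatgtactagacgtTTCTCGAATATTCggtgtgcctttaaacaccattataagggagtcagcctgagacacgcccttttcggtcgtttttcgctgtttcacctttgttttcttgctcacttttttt
hsp-60: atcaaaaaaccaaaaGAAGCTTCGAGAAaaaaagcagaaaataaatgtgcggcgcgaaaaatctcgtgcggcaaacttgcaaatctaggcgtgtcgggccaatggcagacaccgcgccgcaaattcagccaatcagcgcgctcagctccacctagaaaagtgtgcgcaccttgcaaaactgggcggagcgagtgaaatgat
hsp-6: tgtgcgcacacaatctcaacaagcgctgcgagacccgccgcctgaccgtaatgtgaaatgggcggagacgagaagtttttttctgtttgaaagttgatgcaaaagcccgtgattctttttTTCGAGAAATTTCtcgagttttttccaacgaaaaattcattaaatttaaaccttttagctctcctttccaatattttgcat
hsp-1: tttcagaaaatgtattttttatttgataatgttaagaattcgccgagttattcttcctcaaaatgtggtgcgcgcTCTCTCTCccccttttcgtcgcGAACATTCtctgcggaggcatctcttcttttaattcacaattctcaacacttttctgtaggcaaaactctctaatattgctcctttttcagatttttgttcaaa
hsp-3: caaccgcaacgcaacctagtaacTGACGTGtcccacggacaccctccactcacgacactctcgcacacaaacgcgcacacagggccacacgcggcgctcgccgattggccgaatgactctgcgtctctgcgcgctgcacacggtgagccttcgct
hsp-4: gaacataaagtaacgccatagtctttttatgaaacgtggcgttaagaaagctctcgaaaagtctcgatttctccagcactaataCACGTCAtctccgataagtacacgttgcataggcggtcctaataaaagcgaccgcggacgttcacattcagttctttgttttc

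The peak at cdc-48.1 was the strongest of the 9 genes. The gene (WBGene00007352) lies at chromosome II 10560036 to 10563407 on the minus strand, and its peak, at 10563400 to 10563735, had its summit in intergenic sequence 161 bp upstream of the only annotated 5' end. Its pooled signal was 107, rank 7 of 28005, with rank 9 in replicate 1 (signal 72.0) and rank 7 in replicate 2 (signal 38.2). Both replicates thus placed it among their highest peaks, and 0.14% of protein-coding genes had a peak at least this strong within 5000 bp. No other promoter shared the summit. Downstream of the gene, 4 further candidates lay in the intergenic stretch toward mnk-1, a MAP kinase-interacting kinase gene, and reached signals of 8.4 to 23.9. The strongest of them ranked 601 in the pooled list, 543 in replicate 1 and 29492 in replicate 2, so the replicates did not place it alike.

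Its paralog cdc-48.2 (WBGene00008053, chromosome II 8138496 to 8141230, plus strand) encodes the second CDC-48 ATPase of the worm and had no pooled candidate in its promoter. The nearest upstream candidate was 2507 bp away, in a coding exon of the cystinosin homolog gene ctns-1, with a signal of 7.3. Its strongest candidate in the window, with a signal of 11.7 and rank 5827, lay 4570 bp upstream in the 3' UTR of ulp-4, a gene for a ubiquitin-like protease. In the promoter, replicate 2 alone listed a peak, 273 bp upstream at rank 22142. Over the same distances from the 5' end the sequences of the pair held 32.8% and 33.3% GC, and cdc-48.1 alone held a motif, TTCNNGAA at 83 bp upstream.

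**Figure D1:**
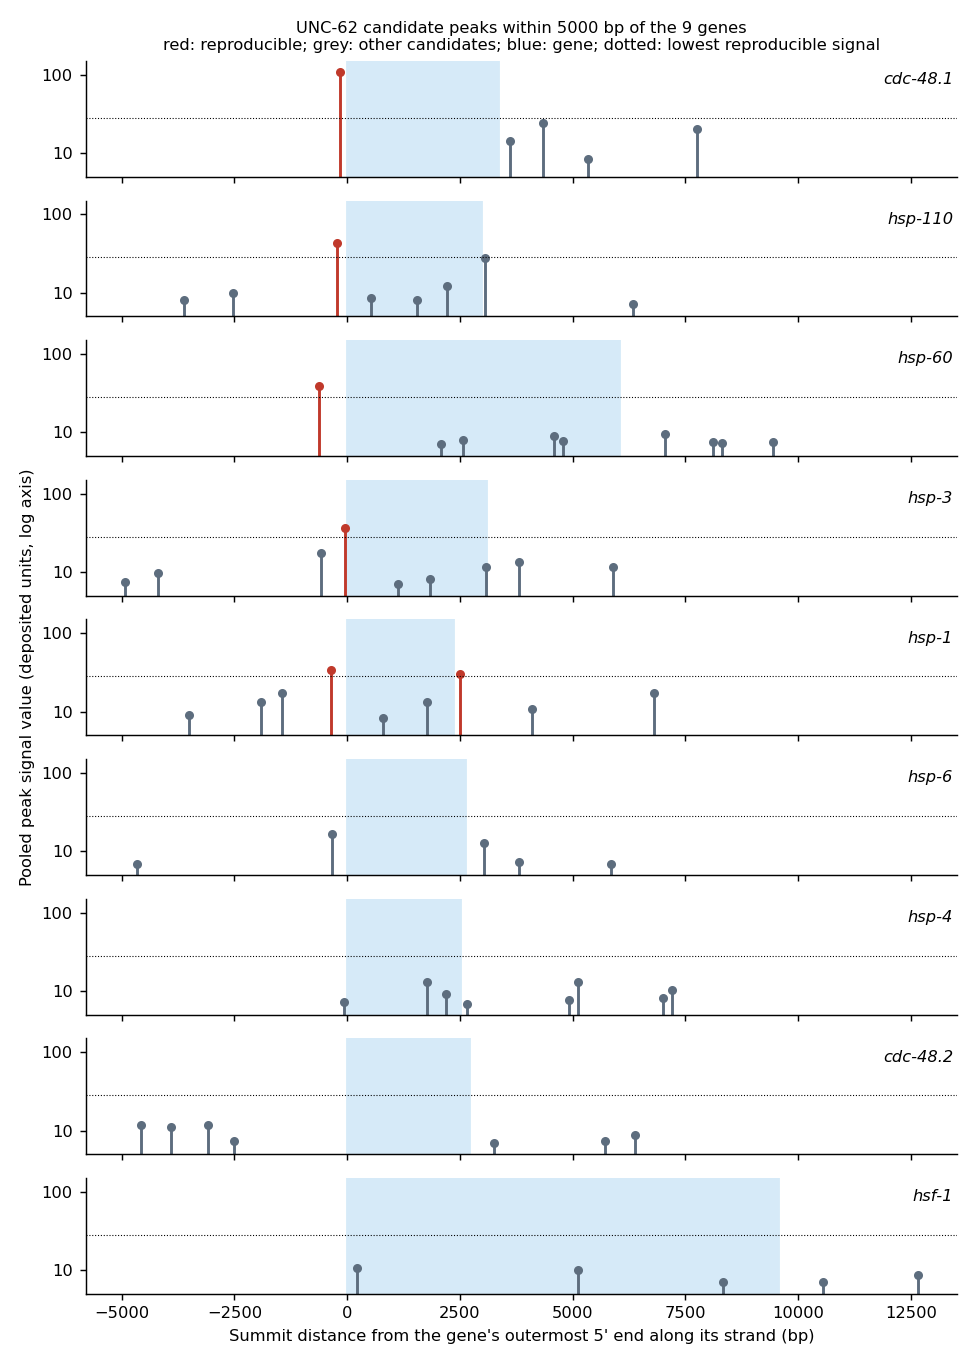
Each panel plots the pooled candidates of 1 gene by summit distance from its outermost 5' end along its strand (bp) against pooled signal on a log axis, with reproducible peaks in red and the gene shaded. The red points stand just upstream of cdc-48.1, hsp-110, hsp-60, hsp-3 and hsp-1, with a further one past the 3' end of hsp-1, and every candidate of the other 4 genes stays below the dotted line at 28.2.

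Among cytosolic chaperones, hsp-110 encodes a large HSP70-type protein that exchanges nucleotide on HSP70, and hsp-1 encodes the constitutive HSP70. The hsp-110 gene (WBGene00016250, chromosome III 8443910 to 8446909, minus strand) had a promoter peak at 8446967 to 8447302 with a signal of 43.6, rank 142. It ranked 125 in replicate 1 and 512 in replicate 2, so it was a top peak in replicate 1 and not in replicate 2. The summit lay 226 bp upstream of hsp-110 and 218 bp upstream of rpn-3, a proteasome regulatory subunit gene transcribed the other way, with 444 bp between the 5' ends. The peak therefore cannot be assigned to one of these quality control genes over the other by distance. An annotated noncoding RNA gene, C30C11.14, lay 40 bp from the summit.

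A further hsp-110 candidate fell just outside the reproducible set, with a signal of 28.06 and rank 422. It lay past the 3' end of hsp-110, at 8443673 to 8444008, in the 302 bp between that gene and ufbp-1, and 234 bp upstream of the 5' end of ufbp-1, which encodes a DDRGK domain protein. The replicates differed widely here: it ranked 51 in replicate 2 with a signal of 24.6, and 16418 in replicate 1 with a signal of 5.9. The reproducible peak of these genes nearest to the limit was the second hsp-1 peak, with a signal of 30.6 and rank 346.

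The hsp-1 gene (WBGene00002005, chromosome IV 17278959 to 17281330, plus strand) was the only one of the 9 with more than 1 reproducible peak. The promoter peak at 17278440 to 17278775 had its summit 351 bp upstream, a signal of 34.3 and rank 261. Its ranks were 187 in replicate 1 and 14184 in replicate 2, where the signal was 4.4. This reproducible peak thus rested mainly on replicate 1. The annotated noncoding RNA gene F26D10.23 lay 106 bp from its pooled summit. The downstream peak at 17281291 to 17281626 had its summit past the gene's 3' end, in the 3' UTR of nra-1, which encodes a nicotinic receptor-associated protein and is transcribed toward hsp-1. It ranked lower in the pooled list, at 346, yet was nearer to the top in replicate 2, with ranks of 231 and 553 in replicates 1 and 2. Inside the gene, candidates in coding exons had signals of 13.3 and 8.2.

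In the endoplasmic reticulum, hsp-3 and hsp-4 both encode BiP, the HSP70 of that compartment, and hsp-4 is well known as a gene induced by unfolded protein stress. The hsp-3 promoter peak (chromosome X 6092011 to 6092346) had a signal of 36.3, rank 225, with rank 211 in replicate 1 and 396 in replicate 2. It was a top peak of both replicates. Its summit lay 55 bp upstream of the outermost 5' end of hsp-3 (WBGene00002007, 6089028 to 6092124, minus strand). A weaker candidate 587 bp upstream, with a signal of 17.2 and rank 1463, ranked 475 in replicate 1 and had no counterpart in replicate 2. That site also lay in the promoter of C15H9.5, a gene for a GOST-type membrane protein by its RefSeq name.

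At hsp-4 (WBGene00002008, chromosome II 7350112 to 7352645, minus strand) the promoter candidate, 67 bp upstream, had a signal of 7.1 and rank 25141. Replicate 1 ranked the overlapping peak 17323, and no replicate 2 peak overlapped it. The strongest candidate near hsp-4, with a signal of 13.03 and rank 3981, lay in a coding exon of the gene and ranked 8017 and 21859 in the replicates. The upstream sequences of both BiP genes held TGACGTG, at 132 bp upstream of hsp-3 and at 83 bp upstream of hsp-4. Among all windows of 100 bp either side of a summit, this motif was found at 5.8% of reproducible peaks and at 1.83% of 27554 lower candidates. Lower candidates here are the pooled ones outside the reproducible set, without 37 that overlap one of its peaks. Of the 59 candidates of the 9 genes outside that set, 3 held TGACGTG (5.08%). Besides the hsp-4 promoter candidate these were an intronic one of hsp-110 and one of cdc-48.2 in a coding exon of rpl-10. The hsp-3 window was 61.7% GC over 201 bp around its summit, above the interquartile range of reproducible peaks (40.4% to 49.3%). The hsp-60 peak (49.8%) was also above that range. Those of hsp-110 (37.8%) and cdc-48.1 (32.8%) and both of hsp-1 (36.8% and 34.3%) were below it.

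Among mitochondrial chaperones, hsp-60 encodes the chaperonin and hsp-6 the HSP70 of the organelle, and both are widely used as reporters of mitochondrial stress. The hsp-60 peak (chromosome III 1618962 to 1619297) had a signal of 39.4 and rank 184, with ranks of 367 and 107 in replicates 1 and 2, a top peak of both. It lay in the 812 bp between hsp-60 (WBGene00002025, 1619742 to 1625803, plus strand) and Y22D7AL.10, transcribed the other way, which RefSeq names the mitochondrial 10 kDa heat shock protein gene, the partner lid of the chaperonin. The summit was 612 bp from hsp-60 and 201 bp from Y22D7AL.10. Over the rest of the hsp-60 window, 8 candidates had signals of 7.1 to 9.6, near the median of the pooled list.

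The hsp-6 gene (WBGene00002010, chromosome V 4824124 to 4826760, minus strand) had its strongest candidate at 4826919 to 4827254, 327 bp upstream, with a signal of 16.7 and rank 1650. It was again between divergent genes, 273 bp upstream of C37H5.5, a nucleolar complex protein gene by RefSeq's name, and overlapped annotated noncoding RNA genes C37H5.15 and C37H5.16. It ranked 22632 in replicate 1 and 3745 in replicate 2, far below the top peaks of each. In all, 17.2% of protein-coding genes had a candidate at least as strong within 5000 bp.

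The regulator hsf-1 (WBGene00002004, chromosome I 11953507 to 11963085, minus strand) had the weakest strongest candidate of the 9. It lay in an intron, 226 bp downstream of a 5' end, with a signal of 10.7 and rank 8113. This candidate counted as in the gene's own promoter because it lay within 1000 bp upstream of the other of 2 annotated 5' ends. Replicate 2 ranked it 2119 and replicate 1 had no overlapping peak. A candidate at least that strong lay within 5000 bp of 60.1% of protein-coding genes, so hsf-1 did not stand apart from the general background of the list.

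**Figure D2:**
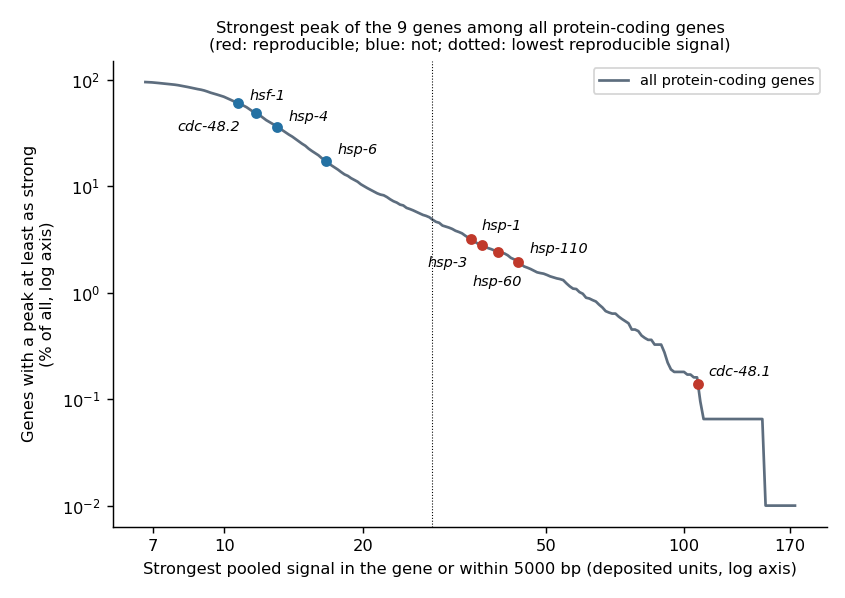
The line gives, for each pooled signal (log axis), the percentage of protein-coding genes (log axis) with a peak at least that strong in the gene or within 5000 bp, and points mark the 9 genes. cdc-48.1 stands at 0.14%, hsp-110, hsp-60, hsp-3 and hsp-1 between 1.92% and 3.20%, and hsp-6, hsp-4, cdc-48.2 and hsf-1 between 17.2% and 60.1%.

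By the strongest pooled peak the order was cdc-48.1 (107), hsp-110 (43.6), hsp-60 (39.4), hsp-3 (36.3), hsp-1 (34.3), hsp-6 (16.7), hsp-4 (13.03), cdc-48.2 (11.7) and hsf-1 (10.7). The first place was the same in both replicates. By the strongest peak of each window, replicate 1 gave hsp-110 (rank 125), hsp-1 (187), hsp-3 (211) and hsp-60 (367), while replicate 2 gave hsp-110 (51, at the ufbp-1 side), hsp-60 (107), hsp-3 (396) and hsp-1 (553). The order of hsp-60, hsp-3 and hsp-1 was therefore reversed between replicates. Among the 4 lower genes the replicates also disagreed in order, with ranks of 4047 (hsp-6), 4948 (cdc-48.2), 5036 (hsp-4) and 6746 (hsf-1) in replicate 1, and 1226 (hsp-6), 2119 (hsf-1), 2182 (cdc-48.2) and 4029 (hsp-4) in replicate 2. All of these ranks were lower in each list than the best ranks of the 5 genes with reproducible peaks. For hsp-1 in replicate 2 that best rank belonged to the peak past its 3' end. Its promoter peak ranked 14184 there, lower than the best peaks of all 4 lower genes. Of the best ranks of those 4 genes, only that of hsf-1 in replicate 2 belonged to a peak in the gene's own promoter. The hsp-6 promoter candidate ranked 22632 in replicate 1 and 3745 in replicate 2.

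Of the 6 reproducible peaks of these genes, all were top peaks of replicate 1 and 3 (cdc-48.1, hsp-60 and hsp-3) were top peaks of replicate 2. Reproducible peaks elsewhere in the genome also fell outside the top peaks of a replicate. Their share is not given here, so nothing is read from this split. A replicate 1 top summit lay within 5000 bp of 5 of the 9 genes, against 4.82% of protein-coding genes. A replicate 2 top summit lay that near to 4 of the 9, against 4.81%. The gene absent in replicate 2 was hsp-1. There hsp-110 was counted only through the candidate beside ufbp-1 (rank 51), as its promoter peak ranked 512. Of all 65 pooled candidates, 48 overlapped a replicate 1 peak, 34 a replicate 2 peak, 22 both and 5 neither, and the same replicate peak can overlap more than 1 candidate. The shares over the whole pooled list are not given here, so these counts are not set against the other genes. The replicates also listed 18 and 13 peaks in these windows that overlapped no pooled candidate, the best of them at ranks 4047 and 4029.

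**Figure D3:**
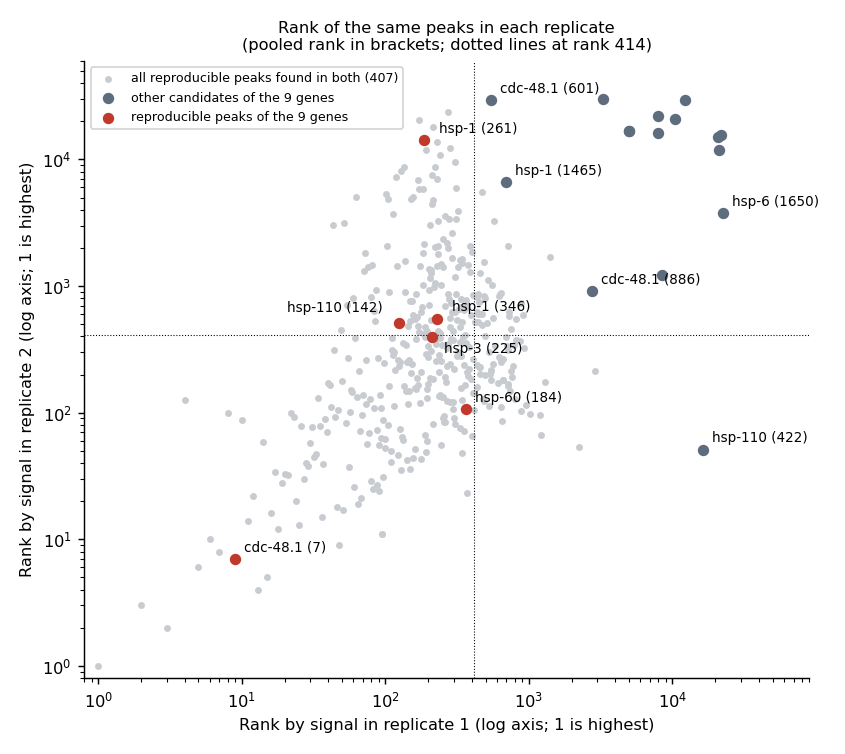
Points give the rank of a peak in replicate 1 against its rank in replicate 2 (both log axes, 1 is highest) for the 407 reproducible peaks found in both lists in grey and for the 22 candidates of the 9 genes found in both in colour, with dotted lines at the last top rank. cdc-48.1 sits at ranks 9 and 7, the hsp-1 promoter peak at 187 and 14184, and the hsp-110 candidate of pooled rank 422 at 16418 and 51.

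The genes with reproducible peaks closest in rank in both replicates, by distance over the log10 ranks of 2 replicates, differed from gene to gene. For cdc-48.1 they were the peaks nearest to W02H3.3 (ranks 7 and 8) and rpl-15, a large ribosomal subunit gene (ranks 6 and 10). For hsp-110 they were those of F49E2.5 (144 and 481) and gpcp-2 (148 and 526), and for hsp-60 those of C34B4.2 (418 and 105) and let-526 (345 and 126). For hsp-3 they were those of C33D9.3 (224 and 377) and unc-76 (189 and 395). The hsp-1 promoter peak stood closest to those of fbxb-85 (180 and 13924) and zfp-3 (191 and 11823), which like it ranked high in replicate 1 alone.

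Candidates were dense around most of the 9 genes whether or not they had a reproducible peak. The windows held 0.26 candidates per kb (hsf-1) to 0.73 per kb (hsp-1), with a median of 0.56, against a median of 0.26 and an interquartile range of 0.17 to 0.37 over all protein-coding genes. At hsp-4 the density was 0.64 per kb and at cdc-48.2 it was 0.55 per kb, above 97.9% and 94.4% of genes, although every peak there was weak. At cdc-48.1 the density was 0.37 per kb, at the upper quartile. The 59 candidates of the 9 genes that were not reproducible had a median signal of 8.97, close to the 9.02 of the whole pooled list. Of the 65 summits, 22 lay in introns (33.8%), 19 in coding exons (29.2%), 18 in intergenic sequence (27.7%) and 6 in 3' UTRs (9.23%). The shares over the whole pooled list were 32.2%, 23.1%, 39.3% and 3.69%. Coding exons of the chaperone genes themselves held 8 of the 19, with signals of 7.8 to 13.3. The candidate just inside the 5000 bp limit was 4922 bp from hsp-3 (signal 7.4), and the next outside it was 5340 bp from cdc-48.1 (signal 12.8).

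In sequence, the reproducible peaks of these genes shared no single motif. GAGAGA stood within 100 bp of 210 reproducible summits (50.7%) and of 14% of lower ones. It lay in 1 of the 6 peaks here, the hsp-1 promoter, in the run of alternating C and T in capitals above. Within 200 bp of the summit it lay in 3 of the 6. TGACAG, the core that MEIS proteins bind, and TGATNNAT were in none of the 6, against 11.6% and 18.6% of reproducible peaks and 7.91% and 10.7% of those in a promoter. TGACAG occurred at 5 of the 59 other candidates of the 9 genes (8.47%), near the 7.92% of lower candidates, and the strongest of these was the hsp-110 candidate of rank 422.

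The heat shock element pairs were in more of them: GAANNTTC in 3 of 6 (hsp-1, hsp-60 and hsp-110) and TTCNNGAA in 3 of 6 (hsp-60, hsp-110 and cdc-48.1). The shares were 8.45% and 6.76% of all reproducible peaks, 9.3% and 11.2% of those in a promoter and 13.3% and 13.4% of lower candidates. Among the 59 other candidates of the 9 genes, 12 held GAANNTTC (20.3%) and 6 held TTCNNGAA (10.2%). At hsp-60 and hsp-110 the pairs overlapped to form GAA units in 3 consecutive alternating positions, a 3-unit heat shock element, and the hsp-6 window held one as well. Of the other 59 candidates, 2 held it, that of hsp-6 and a weak hsf-1 candidate with a signal of 7.02. This longer element was searched for after the sequences had been seen. It occurred in 8 reproducible peaks (1.93%), 3.26% of those in a promoter and 1.23% of lower candidates. The chance of a match depends on base composition, which ranged from 32.8% GC at cdc-48.1 to 61.7% at hsp-3, and a match does not show that HSF-1 binds there.

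Some of these peaks lay between divergent genes. The hsp-60 and hsp-110 summits lay in promoters of genes on both strands, 2 of the 6 peaks, against 14.7% of all reproducible peaks (61 peaks), 28.4% of the 215 reproducible peaks in a promoter and 2.8% of lower candidates. Both are among the 5 promoter peaks here, too few to say whether their share is near 28.4% or apart from it. In both cases the neighbour is itself a quality control gene. When each summit was given only to the gene with the nearest 5' end, 3 of the 9 genes kept a reproducible peak (cdc-48.1, hsp-3 and hsp-1), against 1.78% of protein-coding genes. hsp-60 and hsp-110 then lost theirs to Y22D7AL.10 and rpn-3.

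Reproducible peaks also lay near other quality control genes. Of 141 further genes in 9 lists, 21 had a reproducible summit in the gene or within 5000 bp (14.9%) and 12 in their own promoter (8.51%), next to the 4.94% and 1.38% of all protein-coding genes given above. The list name hsp-10 matched no annotated gene name, so these counts, and those of the mitochondrial list, leave out Y22D7AL.10, the 10 kDa chaperonin gene with the hsp-60 peak 201 bp upstream. Among genes with any candidate, the median strongest signal was 13.8 in the lists and 11.8 over all protein-coding genes. The lists were chosen with results of these data known, so these counts are descriptions and no list is held to stand apart.

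The other cytosolic HSP70 and HSP90 genes had 3 of 5. The peak in the hsp-90 promoter (chromosome V 14685638 to 14685973), for the cytosolic HSP90, had a signal of 60.4, rank 67, and ranks of 149 and 36 in the replicates. It lay 354 bp upstream of a 5' end of hsp-90, in an intron of a longer transcript, and 321 bp upstream of C47E8.4. The HSP70 genes F44E5.4 and F44E5.5, divergent neighbours, lay either side of a single peak with a signal of 30.7, and it was the 1 of 10 further promoter peaks of the lists that held the 3-unit heat shock element. Of those 10 peaks, 6 held GAANNTTC, 3 held TTCNNGAA and 6 held GAGAGA, beside 9.3%, 11.2% and 48.8% of all reproducible peaks in a promoter. Peaks at sti-1, a co-chaperone that links HSP70 and HSP90 (signal 29.5), and at the DnaJ co-chaperone genes dnj-9 (42.9), dnj-13 (33.3) and dnj-19 (31.6) lay in the genes' own promoters. The dnj-19 peak was in the 5' UTR of nhr-47, 2 bp from that gene's 5' end and 398 bp from that of dnj-19. The replicates differed on the sti-1 peak, with ranks of 216 and 4783.

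Of the 8 genes for the cytosolic chaperonin CCT, cct-1 (signal 70.9, rank 41) and cct-8 (46.3, rank 124) had promoter peaks, both shared with a nearer gene, mig-5 and Y55F3AR.2. In the endoplasmic reticulum list the calreticulin gene crt-1 had a promoter peak (36.1), and the peaks of ire-1, sel-11 and der-2 lay 2724 to 5875 bp from their 5' ends, nearer to other genes. Of 12 CDC-48 cofactor genes, ubxn-3 had one, 786 bp upstream with a signal of 45.2. Of 32 proteasome subunit genes, rpn-3 was the only one with a promoter peak, the one it shares with hsp-110, while those of pas-5 and rpn-8 lay nearest to ubc-25 and egg-5. A second dnj-13 peak, with a signal of 31.3, lay 1793 bp from its 5' end and 23 bp from that of F54D5.7. The peaks of dnj-3, dnj-23, stc-1 and the mitochondrial stress factor gene atfs-1, lay 2634 to 4711 bp from the 5' end of the list gene. None of 12 small heat shock protein genes, which are strongly induced by heat, had a reproducible peak, and the strongest candidates of those that had any, all but 1, had a median signal of 11.4.

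**Figure D4:**
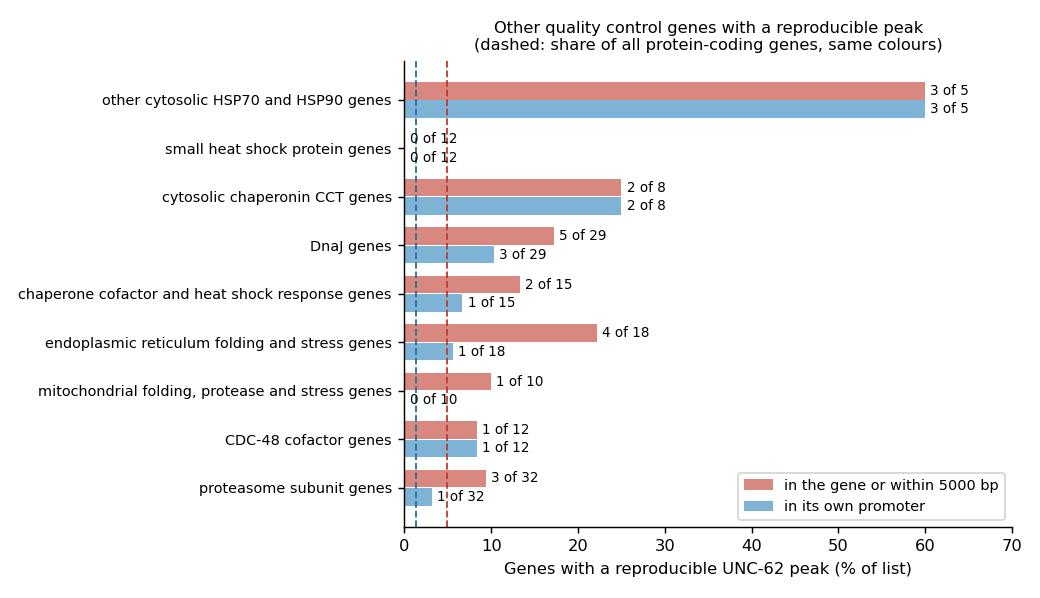
Bars give, for each of 9 lists, the percentage of genes with a reproducible peak in the gene or within 5000 bp (red) or in its own promoter (blue), with counts beside them, and dashed lines mark 4.94% and 1.38%, the shares of all protein-coding genes. The 5 other cytosolic HSP70 and HSP90 genes have the longest bars and the 12 small heat shock protein genes have none.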

How the data were processed

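The deposited files are narrowPeak lists. Per the accompanying notes, the authors made a candidate list per replicate and a pooled one against a control, and derived the 414 reproducible (optimal IDR) peaks from these. Aligner, peak caller and IDR threshold: not given in the sources used here. Each deposited signal value is the authors' own and served for ranks inside its list. The deposited −log10 q value was tied at 2.40 in 635 pooled candidates and was not used for ranking. Depth is unknown, so no counting intervals are given.

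Build ce11 peaks were placed on the WBcel235 genome (RefSeq) with Ensembl release 115 annotation, the same assembly; all lay within its chromosomes. The ce10 lists were not used. Coordinates count from 1. A replicate peak matched when it overlapped by at least 1 bp, and the highest-ranked match was taken. Motifs were sought on either strand, up to 100 bp from each summit. Python 3.11.15, pandas 2.3.3 and numpy 2.4.6 were used. The window, promoter, nearest 5' end, overlap and motif steps were tested on planted positions and simulated sequences with known answers.

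The genes and lists were chosen with earlier results of these data known. Of 146 further list names, 141 matched the annotation. The text names all 9 genes, nearer neighbours of their peaks, every list gene with a reproducible peak, and the genes with peaks closest in replicate rank. Other neighbours and the noncoding RNA genes were picked with their values in view. No test was made, because there is 1 group and the genes were chosen on these values.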

Additional observations from a re-analysis of the deposited data

How the results depend on the processing

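No paired analysis was possible because there is 1 group and no test. The count of 5 genes with a reproducible peak was 5 within 2000 bp, within 1000 bp, in the gene's own promoter (added after the data were seen) and among the 1000 strongest pooled candidates. It was 3 by the nearest 5' end and 3 in the stronger part of the reproducible list by signal, and 4 to 5 with a replicate left out. The 21 further list genes became 13 within 2000 bp, 12 within 1000 bp, 12 in the promoter (also added later), 8 by the nearest 5' end, 8 in that stronger part and 40 in the 1000 strongest candidates, and 15 to 17 with a replicate left out. The 3 reproducible peaks high in both replicates became 5 in the top 1000 and 5 in the top 2000. The 65 candidates became 40 within 2000 bp, 34 in the upper part of the pooled list by signal, and 47 to 65 in single replicates. The strongest candidate lay in the gene's own promoter for 7 genes, and for 4 to 5 with a replicate left out. With a promoter of 2000 bp upstream to 500 bp downstream it did so for 8 genes. With 500 bp upstream to 100 bp downstream it did so for 5. The share over all protein-coding genes is not given here. Peaks with GAGAGA rose from 1 to 3 within 200 bp of the summit. The strongest signals of single genes kept their value in 13 of 16 alternatives; by the nearest 5' end hsp-60 went to 8.97 and hsp-110 to 8.60, and cdc-48.2 within 2000 bp to 6.92, while hsp-6 and cdc-48.2 had no value by the nearest 5' end. Fewer peaks or shorter windows lower a count by construction; other causes were not tested.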
